A study of Mus musculus with 6 samples.

Results

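Marker genes of immune cells were examined in liver RNA of mice lacking RECS1 in hepatocytes (HKO, genotype RECS1-HKO, n = 3) and of control mice with floxed RECS1 (genotype RECS1-flox, n = 3). The set was a list of 48 markers of macrophages and Kupffer cells, monocytes and dendritic cells, neutrophils, and T, B and natural killer (NK) cells, found by gene symbol. Of these, 44 were measured among 18029 genes, and Ly6c1, Ly6g, Lck and Klrb1c were not analysed here. All 6 animals were C57BL/6, began a high-fat diet at 8 weeks of age, ate it for 8 weeks and were 16 weeks old. RECS1 is an older name of Tmbim1, which encodes a membrane protein of the TMBIM family. The series title calls the deletion hepatocyte specific, and the labels name neither the Cre line nor the sex.

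Liver holds a large resident macrophage population, the Kupffer cells, which line the sinusoids and clear particles and old red cells from blood. In obesity and steatohepatitis, monocyte-derived macrophages, neutrophils and lymphocytes can join them. Whole-liver RNA reads such cells through genes that hepatocytes barely express, such as the surface receptor F4/80 (Adgre1) for macrophages or the CD3 chains for T cells. In such bulk RNA, fewer cells of a type and less RNA per cell cannot be told apart.

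Values are log2 intensities of Affymetrix arrays, 1 array per liver, and their number limits the precision of every value. Tmbim1, the deleted gene, read 7.62, 7.58 and 7.74 in control and 7.19, 7.14 and 7.06 in HKO liver (log2 difference -0.52 ± 0.08 SE, limma, Benjamini-Hochberg adjusted p = 0.026). It fell without overlap, although in fits without 1 array its adjusted p lay between 0.065 and 0.0967. Hepatocyte markers were bright in every array, and none of 9 passed the test. Transcripts of Y-linked Eif2s3y lay between 6.74 and 7.14 and those of Xist between 1.20 and 1.57 in the 6 arrays. Across all genes, 182 passed an adjusted p of 0.05, which is 1.01% of those tested.

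The promoters of the members on which the description turns are shown first. Myeloid genes are commonly driven by PU.1, an ETS transcription factor of macrophages, neutrophils and B cells that binds purine-rich sites with a GAGGAA core. The windows below are the 250 bases before the annotated gene start, 5′ to 3′ on the strand of the gene, from RefSeq on GRCm38.p6. Capitals mark GAGGAA or its reverse complement TTCCTC. S100a8 (chr3:90668821-90669070, plus strand) and S100a9 (chr3:90695722-90695971, minus strand) are shown because they differed most between control livers. C1qb (chr4:136886201-136886450, minus strand) and C1qc (chr4:136892915-136893164, minus strand) are shown as neighbours whose levels ran in parallel. Cd163 (chr6:124304401-124304650, plus strand) had the lowest p of the members, and Marco (chr1:120505025-120505274, minus strand) the largest difference.
S100a8: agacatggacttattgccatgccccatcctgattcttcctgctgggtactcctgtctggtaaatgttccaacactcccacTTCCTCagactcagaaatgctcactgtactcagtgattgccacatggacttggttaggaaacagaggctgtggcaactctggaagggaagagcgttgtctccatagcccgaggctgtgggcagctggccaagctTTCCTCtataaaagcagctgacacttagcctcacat
S100a9: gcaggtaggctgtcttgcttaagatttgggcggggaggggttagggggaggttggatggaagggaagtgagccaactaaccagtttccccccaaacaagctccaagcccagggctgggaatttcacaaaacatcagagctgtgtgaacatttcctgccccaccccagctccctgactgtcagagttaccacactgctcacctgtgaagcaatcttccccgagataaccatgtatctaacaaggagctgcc
C1qb: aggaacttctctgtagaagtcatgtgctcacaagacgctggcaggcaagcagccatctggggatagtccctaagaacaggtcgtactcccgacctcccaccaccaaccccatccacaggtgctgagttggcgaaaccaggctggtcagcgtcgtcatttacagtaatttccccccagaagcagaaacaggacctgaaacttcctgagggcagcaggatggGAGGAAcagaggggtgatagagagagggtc
C1qc: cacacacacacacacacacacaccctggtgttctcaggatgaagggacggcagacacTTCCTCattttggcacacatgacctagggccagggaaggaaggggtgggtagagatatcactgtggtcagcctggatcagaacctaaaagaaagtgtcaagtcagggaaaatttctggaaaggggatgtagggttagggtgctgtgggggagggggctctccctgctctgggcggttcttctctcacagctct
Cd163: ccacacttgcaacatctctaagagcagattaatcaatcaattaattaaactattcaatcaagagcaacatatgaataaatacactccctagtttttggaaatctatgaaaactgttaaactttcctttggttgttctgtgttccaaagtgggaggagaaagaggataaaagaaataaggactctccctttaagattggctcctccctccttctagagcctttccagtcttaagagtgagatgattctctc
Marco: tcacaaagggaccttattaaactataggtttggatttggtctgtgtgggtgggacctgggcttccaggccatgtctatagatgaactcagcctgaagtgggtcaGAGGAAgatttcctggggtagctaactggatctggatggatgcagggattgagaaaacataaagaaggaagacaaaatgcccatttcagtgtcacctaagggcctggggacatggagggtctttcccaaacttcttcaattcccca

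Of the 44 measured members, 35 had a promoter entry, and 20 of these (57.1%) held GAGGAA on either strand within the 250 bases, against 6986 of 27025 genes (25.9%). The macrophage and Kupffer cell markers held it in 8 of 13, the neutrophil markers in 5 of 6 and the monocyte, recruited macrophage and dendritic cell markers in 2 of 6. Of the lymphocyte markers, those of T cells held it in 3 of 4, of B cells in 1 of 1 and of NK and cytotoxic cells in 0 of 4. S100a8 held it at 2 places, C1qb, C1qc and Marco at 1, and S100a9 and Cd163 at none. The kappa-B motif of NF-kB, searched on both strands, was in 2 of the 35 members (5.71%), C1qc and Csf3r, against 8.23% of all genes. The motif TTNNGCAA of C/EBP factors was in 3 of the 35 (8.57%), Cd68, Cd8a and S100a9, against 10.8% of all genes. A match is a description of letters, not of binding.

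The comparison of HKO with control liver asks whether immune cell markers differ when hepatocytes lack Tmbim1 on a high-fat diet. None of the 44 members passed the test in either direction (limma, adjusted over all genes), beside 1.01% of all genes, 0.56% higher and 0.449% lower. At an unadjusted p under 0.05 stood 2 members, Cd163 and Ccr2, beside 13% of all genes. These were also the only 2 members whose 3 HKO and 3 control values did not overlap, both lower in HKO, beside 18.7% of all genes without overlap, 8.58% higher and 10.1% lower. Of the rest, 42 overlapped. The members' median log2 difference was -0.014, with 20 positive and 24 negative values, and that of all genes was -0.004.

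The fits bound these differences as well. The 95% interval of the difference lay within 2-fold either way for 41 of 44 members, compared with 98.2% of all genes. The exceptions were Marco, S100a8 and S100a9. Within 0.5 log2 units lay 27 of 44 intervals. A missed threshold does not show equal levels for the other members.

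**Figure D1:**
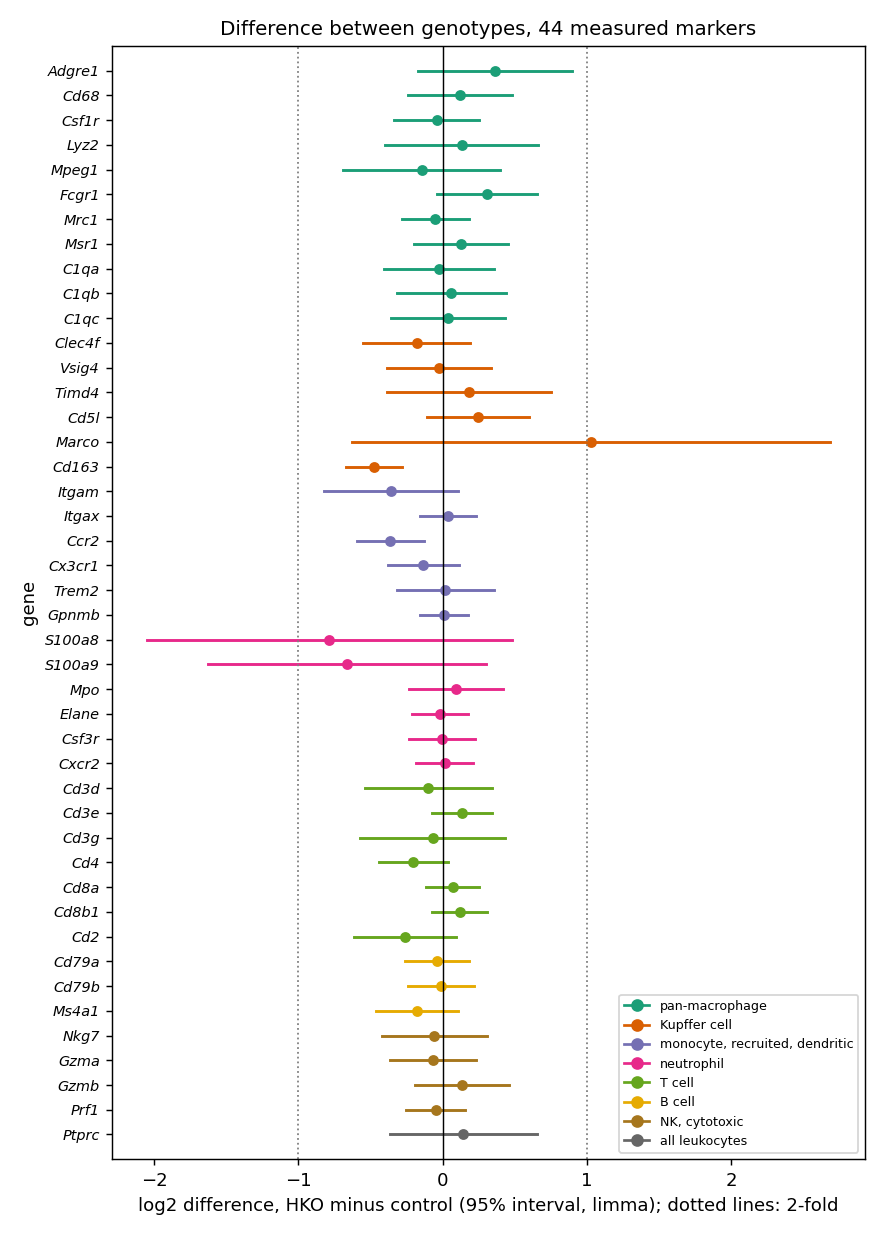
Log2 difference between HKO and control liver (x axis) for each of the 44 measured markers (y axis), as points with 95% intervals from limma, coloured by cell type; dotted lines mark 2-fold. Only the intervals of Cd163 and Ccr2 leave out 0, and those of Marco, S100a8 and S100a9 reach beyond 2-fold.

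Markers shared by most macrophages came first. All 11 measured pan-macrophage markers were above the median gene (4.69) and none passed, with differences from -0.14 to 0.37 and a median of 0.06. Adgre1, which encodes F4/80, read 6.65, 5.96 and 6.23 in control and 6.56, 7.11 and 6.27 in HKO liver. HKO 2 was the highest and control 2 the lowest, and the groups overlapped (0.37 ± 0.23 SE, adjusted p = 0.566). Csf1r, the receptor of the growth factor that keeps macrophages alive, read 10.23, 9.78 and 9.75 against 9.83, 9.90 and 9.91. Control 1 alone stood above the other 5 arrays (-0.04 ± 0.13, 0.928).

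The lysosomal glycoprotein gene Cd68 stood at 0.12 ± 0.16 (adjusted p = 0.797) and the lysozyme gene Lyz2 at 0.13 ± 0.23 (0.853). Mpeg1, a pore-forming protein of phagocytes, stood at -0.14 ± 0.24 (0.845), and the mannose receptor Mrc1 at -0.05 ± 0.10 (0.870). The scavenger receptor Msr1 stood at 0.13 ± 0.14 (0.764). Fcgr1, the high-affinity Fc receptor for IgG, had the lowest p of this group, at 0.31 ± 0.15 (0.446). For each of these 6 genes the groups overlapped.

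C1qa, C1qb and C1qc encode the 3 chains of complement C1q, which liver macrophages make. C1qa read 8.60, 7.88 and 8.04 in control and 8.15, 8.17 and 8.12 in HKO liver. C1qb read 8.96, 8.28 and 8.43 against 8.51, 8.74 and 8.61, and C1qc 8.09, 7.37 and 7.51 against 7.63, 7.78 and 7.67. Each was highest in control 1 and lowest in control 2, while the HKO values fell between these. The differences were -0.03, 0.06 and 0.04, and the 3 genes correlated with each other at Pearson r from 0.94 to 0.99 over the 6 arrays. They share those arrays, and C1qb and C1qc lie next to each other on chromosome 4.

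Differences of the Kupffer cell markers ranged from -0.48 (Cd163) to 1.03 (Marco), more widely than those of the pan-macrophage markers. The median SE was 0.16, beside 0.165 for the pan-macrophage markers, but the SE of Marco was 0.72. After Marco, the next highest difference of a Kupffer cell marker was 0.25, for Cd5l. All 6 Kupffer cell markers were above the median gene, and their median difference was 0.08. Cd163, the scavenger receptor for haemoglobin and haptoglobin complexes, read 6.70, 6.75 and 6.89 in control and 6.29, 6.22 and 6.40 in HKO liver. Every HKO value lay below every control value, a difference of -0.48 ± 0.09 or 0.719 times the control level (95% interval -0.67 to -0.28, adjusted p = 0.05005). It thus stood just outside the threshold. It passed in 5 of 8 refits of all 6 arrays and in 0 of 6 without 1 array, with adjusted p from 0.0249 to 0.175. Without 1 array the differences lay between -0.53 and -0.42. Cd163 has 1 probe set, so leaving out dim genes or changing the probe set choice kept its values the same. Those passes came from changes in the other genes of the fit. Control 1, which is high for most macrophage markers, was the lowest control for Cd163.

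Marco, a scavenger receptor that binds bacteria, had the largest difference of any member and the largest spread. It read 6.34, 4.94 and 4.79 in control and 5.98, 8.11 and 5.07 in HKO liver. HKO 2 stood 2.59 log2 units above the mean of the other HKO arrays, and control 1 stood 1.47 above that of the other controls. The difference of 1.03 ± 0.72 (adjusted p = 0.607) was 0.17 without HKO 2. Its other probe set, which shares the pattern, read 6.45 in HKO 2 and between 3.83 and 5.06 elsewhere.

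Timd4, a phosphatidylserine receptor of long-lived resident Kupffer cells, read 5.15, 4.49 and 4.65 against 4.94, 5.43 and 4.47, and so was also highest in HKO 2 (0.19 ± 0.25, 0.804). Cd5l, a secreted protein of macrophages, was highest in HKO 2 too (0.25 ± 0.15, 0.559). Clec4f, a lectin of mouse Kupffer cells, read 8.81, 8.31 and 8.34 against 8.45, 8.03 and 8.43, and was lowest in HKO 2 (-0.18 ± 0.16, 0.701). The complement receptor gene Vsig4 stood at -0.03 ± 0.16 (0.964). The high values of HKO 2 were thus seen in Marco, Timd4 and Cd5l and not in Clec4f, Vsig4 or Cd163, and the cause was not tested. Marco correlated with Timd4 at r = 0.948 and with Clec4f at r = -0.32 over the 6 arrays.

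**Figure D2:**
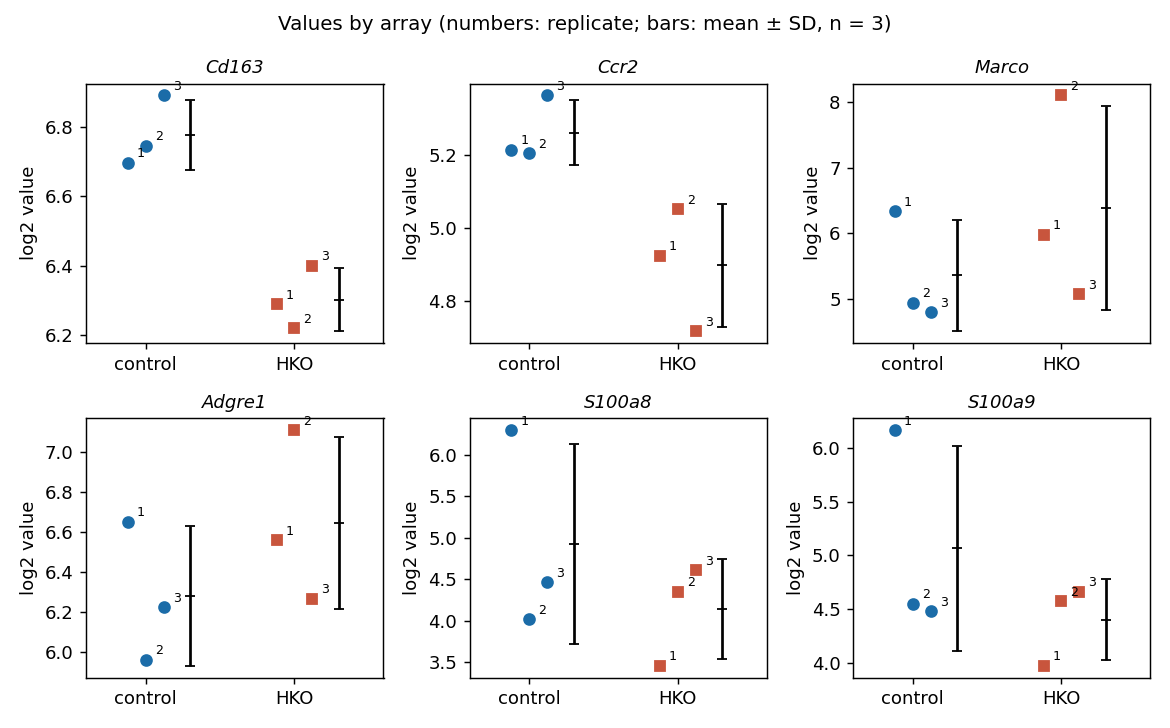
Log2 values of 6 members in each array (control, blue circles; HKO, red squares; numbers give the replicate), with mean ± SD (n = 3) beside each group; the y axes differ and do not start at 0. Cd163 and Ccr2 separate by genotype, while HKO 2 sets the range of Marco and Adgre1 and control 1 that of S100a8 and S100a9.

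Markers of monocytes, recruited macrophages and dendritic cells were dimmer, with 2 of 6 above the median gene, and none passed. Ccr2, the receptor through which monocytes follow the chemokine Ccl2, read 5.21, 5.20 and 5.36 in control and 4.92, 5.05 and 4.72 in HKO liver. The 3 HKO arrays were the 3 lowest (-0.36 ± 0.10, 0.778 times control, adjusted p = 0.188). The other 3 probe sets of Ccr2 were dimmer, between 2.08 and 3.09, and stood at 0.17, 0.11 and 0.06. The lower values thus rest on 1 of 4 probe sets, and with the median of the probe sets the difference was 0.12 (adjusted p = 0.815).

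Cx3cr1, the fractalkine receptor of patrolling monocytes, stood at -0.13 ± 0.11 (0.663). The integrins Itgam (CD11b) and Itgax (CD11c) stood at -0.36 ± 0.20 (0.513) and 0.04 ± 0.08 (0.892), and Itgam was -0.12 without control 1. Trem2, a lipid-sensing receptor of the macrophages that gather in fatty liver, read 3.92, 4.12 and 4.40 against 3.98, 4.12 and 4.40, so the groups covered nearly the same range (0.02 ± 0.15, 0.974). Gpnmb, a glycoprotein of the same lipid-laden cells, lay between 4.21 and 4.33 in all 6 arrays (0.01 ± 0.07, 0.974). Both lay below the median gene.

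Of 7 neutrophil markers 6 were measured and none passed, with a median difference of -0.011. S100a8 and S100a9, which encode the 2 chains of the antimicrobial protein calprotectin, had the largest negative differences of any members. S100a8 read 6.30, 4.02 and 4.46 in control and 3.46, 4.35 and 4.61 in HKO liver. S100a9 read 6.17, 4.55 and 4.48 against 3.97, 4.57 and 4.66. In both, control 1 was far above the rest and HKO 1 lowest. The differences of -0.79 ± 0.55 (adjusted p = 0.607) and -0.66 ± 0.42 (0.563) were -0.10 and -0.11 without control 1.

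The other measured neutrophil markers of the set did not share that range. Mpo and Elane, which encode the granule enzymes myeloperoxidase and neutrophil elastase, stood at 0.09 ± 0.14 (0.834) and -0.02 ± 0.09 (0.958). Csf3r, the receptor of granulocyte colony-stimulating factor, lay between 5.23 and 5.51 and stood at -0.005 ± 0.10 (0.991). The chemokine receptor gene Cxcr2 lay between 3.30 and 3.53 and stood at 0.01 ± 0.09 (0.969). S100a8 correlated with S100a9 at r = 0.979 but with Csf3r at 0.278 and with Cxcr2 at -0.31. Outside the set, control 1 was the highest array for 8 of 11 other monocyte and neutrophil genes, beside 21.5% of all genes. Their mean deviation in control 1 was 0.55. S100a8, Mpo, Elane and Cxcr2 lay below the median gene.

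T cell markers had a median level of 3.71, and only Cd3e was above the median gene (4.69). None of 7 measured passed, and their median difference was -0.07. Cd3e, a signalling chain of the T cell receptor complex, read 5.24, 5.12 and 5.24 in control and 5.18, 5.44 and 5.39 in HKO liver (0.14 ± 0.09, adjusted p = 0.588). Cd3d and Cd3g, chains of the same complex, stood at -0.10 ± 0.19 (0.864) and -0.07 ± 0.22 (0.929), and both were highest in control 1, at 4.89 and 3.97. Without control 1 they stood at 0.13 and 0.18.

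The helper T cell coreceptor Cd4 stood at -0.20 ± 0.11 (0.469) and the adhesion receptor Cd2 at -0.26 ± 0.15 (0.533), and again control 1 was the highest array. The coreceptor chains Cd8a and Cd8b1 of killer T cells stood at 0.07 ± 0.08 (0.770) and 0.12 ± 0.08 (0.612). Among the 5 probe sets of Cd8a, a dim one read 3.34, 3.38 and 3.31 in control and 3.64, 3.57 and 3.57 in HKO liver. It separated the genotypes (0.25 ± 0.07, adjusted over probe sets 0.23), while the other 4 stood between 0.07 and 0.13.

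B cell markers were all below the median gene, and none of 3 passed. Cd79a and Cd79b, the signalling chains of the B cell receptor, stood at -0.04 ± 0.10 (adjusted p = 0.908) and -0.01 ± 0.10 (0.975). Ms4a1, which encodes CD20, stood at -0.18 ± 0.12 (0.600). Of 4 measured markers of NK and cytotoxic cells, also all below the median gene, none passed. The granule protein gene Nkg7 stood at -0.06 ± 0.16 (0.914), the granzymes Gzma and Gzmb at -0.07 ± 0.13 (0.868) and 0.13 ± 0.14 (0.747), and perforin (Prf1) at -0.05 ± 0.09 (0.859).

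Ptprc, which encodes CD45 and is carried by all leukocytes, read 7.14, 6.26 and 6.52 in control and 6.62, 7.09 and 6.63 in HKO liver. Control 1 and HKO 2 were the highest arrays, and the groups overlapped (0.14 ± 0.22, adjusted p = 0.833). Leaving out control 1 gave 0.39 and leaving out HKO 2 gave -0.01.

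Single livers stood apart across many members. Control 1 was the highest of the 6 arrays for 22 of 44 members (50.0%), compared with 21.5% of all genes, and HKO 2 for 11 (25.0%), compared with 15.1%. Among the controls alone, control 1 was the highest for 10 of 11 pan-macrophage and 5 of 6 Kupffer cell markers, and for 39.1% of all genes. It exceeded the mean of the other controls by 0.85 for Lyz2, 0.91 for Mpeg1 and 0.75 for Ptprc. The mean deviation of the pan-macrophage markers from their gene means was 0.31, -0.31 and -0.12 in control and -0.06, 0.18 and -0.002 in HKO arrays. After the group means were removed, the median correlation between pairs of pan-macrophage markers was 0.778, and between pairs of all genes 0.005, over the same 6 arrays. The other immune groups were lower, at 0.577 for T cell, 0.496 for NK, 0.195 for neutrophil and 0.138 for Kupffer cell markers. The B cell group stood at -0.23 and the monocyte group at -0.421. Some lists of other cells also exceeded all genes, with 0.445 for hepatocyte, 0.435 for endothelial and 0.333 for stellate cell and fibroblast markers. The 3 erythrocyte markers stood at 0.625, while the cholangiocyte markers stood at -0.409.

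Markers of other cell types were read for the same order. Control 1 was the highest array for 0 of 9 hepatocyte, 3 of 12 endothelial, 3 of 10 stellate cell and fibroblast, 2 of 5 cholangiocyte and 1 of 3 erythrocyte markers. The mean deviations of the hepatocyte and endothelial markers in control 1 were -0.06 and 0.02. The mean of the 3 erythrocyte markers was highest in control 1 and HKO 2, as was that of the macrophage markers. Its deviations were 0.23, 0.06 and -0.16 in control and -0.18, 0.19 and -0.15 in HKO arrays. The single genes did not all share this order. Alas2 read 8.02 in control 2 and 7.95 in HKO 2, and the dim Hba-a1 (mean 2.32) was highest in HKO 3. The part of the erythrocyte markers in the marker levels, and the cause of the differences between livers, was not tested. The labels name no batch.

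**Figure D3:**
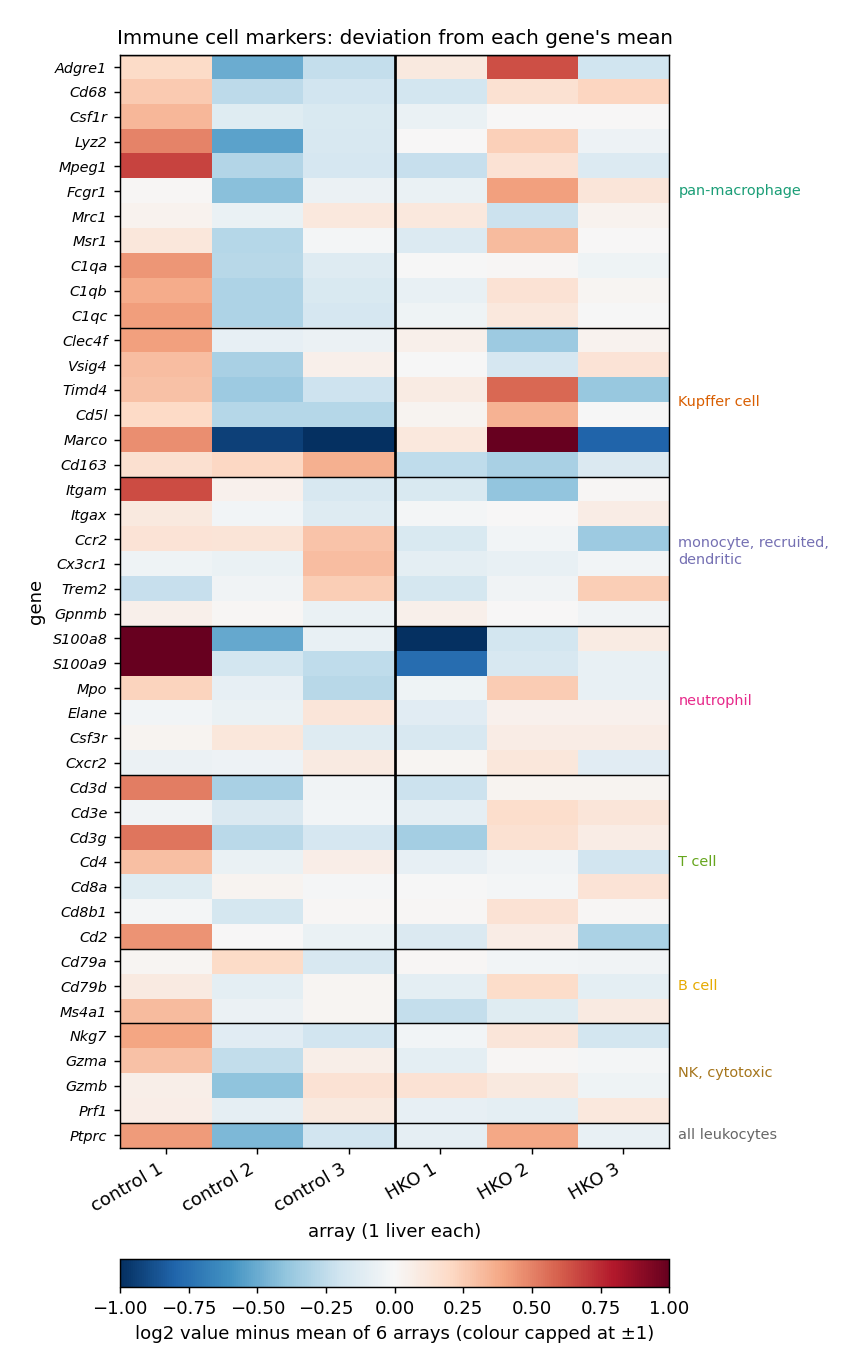
Deviation of each marker (rows, grouped by cell type) from its own mean over the 6 arrays (columns), in log2 units with colours capped at 1 either way; the vertical line parts control from HKO. Control 1 is red for most macrophage, T and NK cell markers, HKO 2 for Marco, Timd4 and Adgre1, and Cd163 is blue in all 3 HKO arrays.

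**Figure D4:**
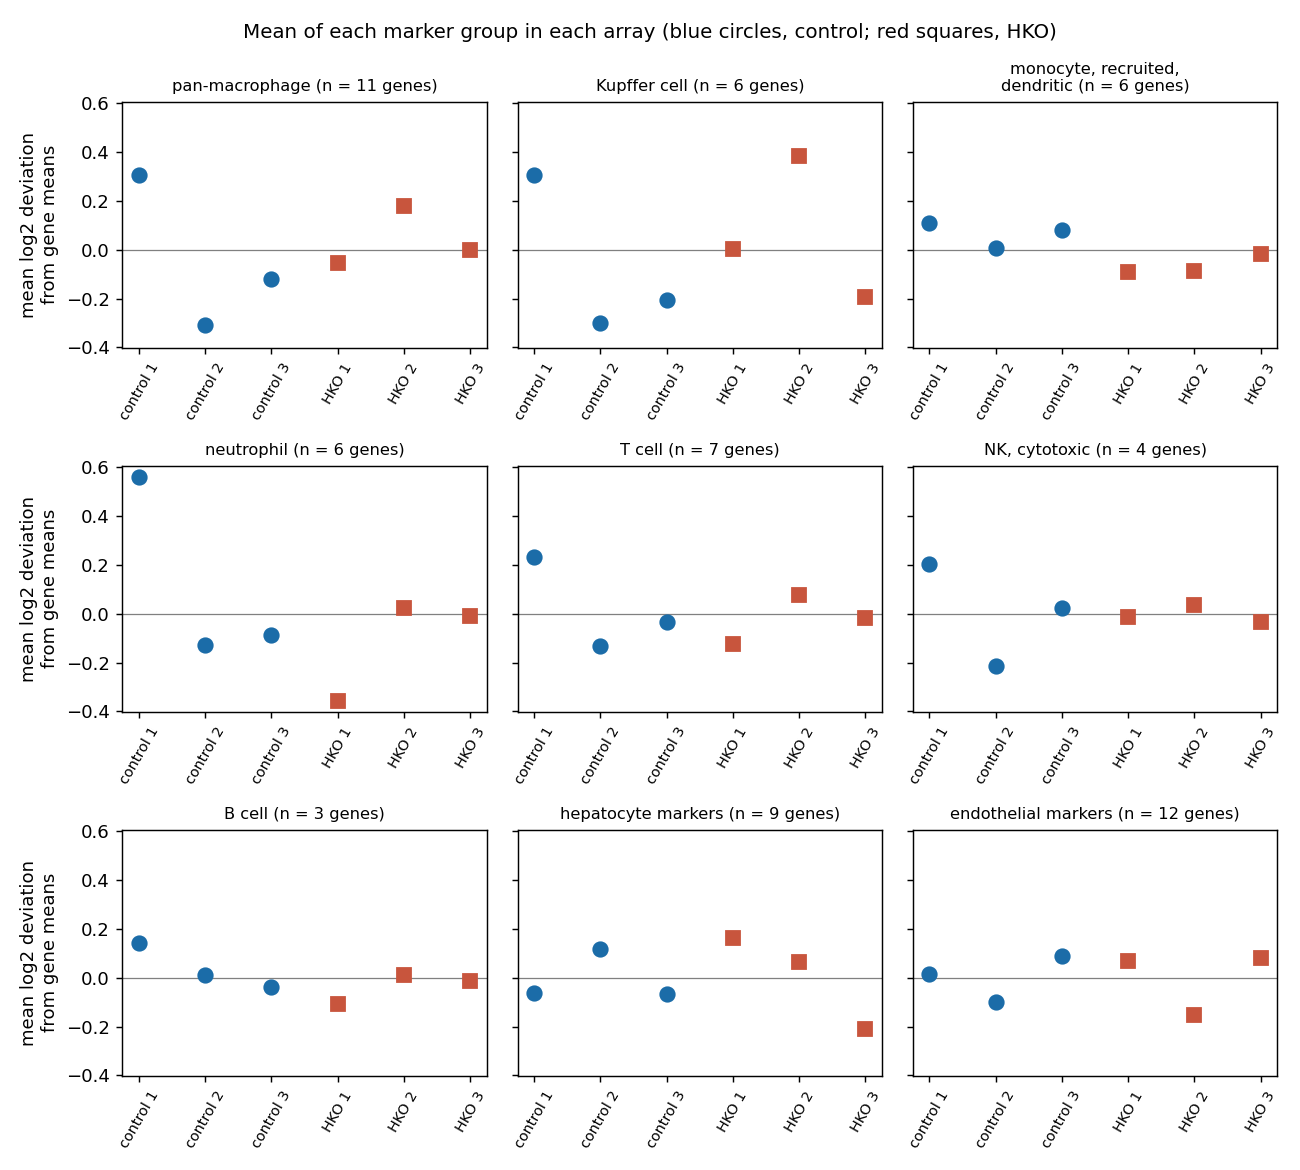
Mean log2 deviation (y axis) of the members of 7 immune groups, and of hepatocyte and endothelial markers, in each array (x axis). Control 1 is the highest control in each of the 7 immune panels, from 0.11 for the monocyte group, where control 3 is at 0.08, to 0.56 for neutrophil markers, while the hepatocyte and endothelial panels place it at -0.06 and 0.02.

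Leaving out control 1 raised the members' median difference from -0.014 to 0.105, that of the pan-macrophage markers from 0.06 to 0.26 and that of the Kupffer cell markers from 0.08 to 0.25. The same step moved the median of all genes only from -0.004 to 0.002. No member passed in that fit or in any other without 1 array. Leaving out control 2, the lowest control for most macrophage markers, turned the sign of both, to -0.10 for the pan-macrophage and -0.07 for the Kupffer cell markers, and brought the members' median to -0.088. Leaving out HKO 2 brought the pan-macrophage median to 0.002 and the Kupffer cell median to 0.004. Without control 3, HKO 1 or HKO 3 the pan-macrophage median was -0.001, 0.115 or 0.051, the Kupffer cell median 0.061, 0.080 or 0.105, and the members' median -0.016, 0.021 or -0.020. The direction of these medians thus depended on which liver was left out.

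Further genes of the same cells, taken from fixed lists, were read in the same fit. Of 19 other macrophage genes none passed, with a median of -0.04. Id3, a regulator needed for Kupffer cell identity, had the lowest p (-0.45 ± 0.18, adjusted p = 0.349). The liver X receptor Nr1h3 stood at -0.14 (0.561), Aif1 (IBA1) at 0.32 (0.584) and the red pulp macrophage factor Spic at 0.31 (0.577). Of 14 genes shared by leukocytes none passed either, with Vav1 at 0.34 (0.264) and Cd44 at 0.40 (0.455).

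Antigen presentation genes had a median of -0.30, with 10 of 11 values negative and none past the threshold. Tap2, a subunit of the peptide transporter for MHC class I, read 5.69, 5.69 and 5.64 in control and 5.13, 5.49 and 5.16 in HKO liver (-0.41 ± 0.11, adjusted p = 0.157, and from 0.0358 to 0.354 without 1 array). The other subunit, Tap1, stood at -0.35 (0.247) and Ciita, the master activator of MHC class II, at -0.27 (0.284). H2-Aa, an MHC class II chain, stood at -0.48 ± 0.27 (0.506), and at -0.13 without control 1. Without that array the median of the list was -0.015.

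Among 17 other T and NK cell genes Ccl5 alone passed, and among 9 other B and plasma cell genes Sdc1 alone. Sdc1, which encodes syndecan-1 and marks plasma cells but is also made by hepatocytes, rose by 0.47 ± 0.08 (adjusted p = 0.0351), and stood between 0.43 and 0.52 without 1 array, where it no longer passed (0.0637 to 0.124). Of the remaining genes of these lists, Foxp3, the factor of regulatory T cells, stood at -0.16 (0.438) and Jchain, the joining chain of antibodies, at 0.55 ± 0.43 (0.648). None of 11 other monocyte and neutrophil genes passed, with F13a1 at 0.33 (0.324) and Prtn3 at -0.45 (0.511). Without control 1, its highest array, Prtn3 stood at -0.12.

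Signals that recruit or sustain these cells stood apart from the markers. Of 19 measured, 5 rose and none fell, beside 0.56% of all genes that rose. They were the chemokines Ccl5, Cxcl10 and Ccl2 and the cytokines Il1b and Tnf. The list was chosen with earlier results of these data known, so this share is a description only. Named were the 4 genes with the lowest p and, after its value was seen, Ccl2. The difference was 2.69 ± 0.07 for Ccl5 (adjusted p = 1.94e-06), which draws T cells and monocytes, and 2.55 ± 0.16 for Cxcl10 (0.000159), which draws activated T and NK cells. It was 1.61 ± 0.17 for Ccl2 (0.00412), the ligand of Ccr2. In each of the 5, all HKO values lay above all control values. Such a separation was seen in 7 of the 19 signals, including some that did not pass, beside 8.58% of all genes. Ccl2 read 4.19, 3.62 and 3.74 against 5.71, 5.24 and 5.42. The other 14 signals did not pass, with differences from -0.26 to 0.46.

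**Figure D5:**
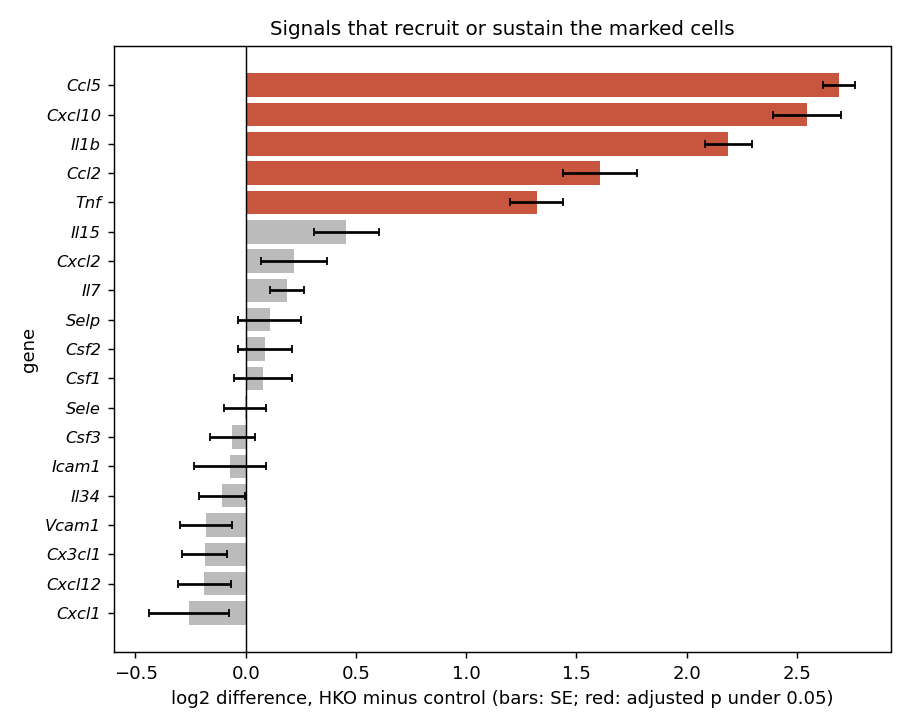
Log2 difference between HKO and control liver (x axis; bars show the SE) for 19 signals that recruit or sustain immune cells (y axis); red bars passed an adjusted p of 0.05. The 5 red bars lie between 1.32 and 2.69, and the 14 grey ones between -0.26 and 0.46.

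Probe sets of the same gene were compared last. The 44 members had 67 probe sets, and 14 members had more than 1. None of the 67 passed when each of 34325 probe sets was tested on its own, beside 0.72% of all, and 4 (5.97%) had an unadjusted p under 0.05, beside 12% of all. Besides those of Cd163, Ccr2 and Cd8a given above, this was a dim probe set of Ptprc (0.26 ± 0.10, adjusted p = 0.33), whose brighter probe set stood at 0.14. In 7 of the 14 members the probe sets differed in sign. These were Ccr2, Fcgr1 (0.31 and -0.22), Cd4 (-0.20 and 0.08), Cx3cr1 (-0.13 and 0.05), Ms4a1 (-0.18 and 0.05), Prf1 (-0.05 and 0.09) and Gpnmb (0.01 and -0.03). The other 7 had 1 sign, among them Csf1r (-0.04, -0.13 and -0.09), C1qb (0.06, 0.06 and 0.21) and Msr1 (0.13, 0.04, 0.04 and 0.05).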

How the data were processed

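Total liver RNA (400 ng) of 3 control and 3 HKO mice was hybridised to Affymetrix arrays. The authors deposited log2 values; the submitters' processing notes list RMA and limma. RMA brings arrays to a common distribution, and array medians lay between 3.923 and 3.953. Of 38208 probe sets, 34325 named 1 gene in the platform annotation, 62 several and 3808 none; 34131 were matched to current symbols by ID. The probe set with the highest mean over the 6 arrays stood for each of 18029 genes. HKO minus control was fitted with limma 3.58.1 in R 4.3.3, p-values were adjusted by Benjamini-Hochberg across the 18029 genes and called under 0.05, and the fit was tested on simulated data. An exact permutation test of 3 against 3 cannot go below 0.1. The series calls the samples biological. The p-values weigh the difference between genotypes against the spread between livers within each group of 3, which limma moderates over all genes.

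All 48 members could be named. Of each other list at most the 4 genes with the lowest p were, except that Ccl2 was added after its value was seen. Tmbim1 was named as the check of the labels. The members and lists were chosen with earlier results of these data known. Motifs were searched in RefSeq promoters of GRCm38.p6. Alternatives changed the normalization, centring, dim genes, probe set choice, variance model, array weights, threshold, replicate block and arrays included.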

Additional observations from a re-analysis of the deposited data

How the results depend on the processing

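The count of 182 genes called was 344 at an adjusted p under 0.1 and 65 under 0.01, and between 78 and 161 without 1 array: 94 without control 1, 81 without control 2, 84 without control 3, 78 without HKO 1, 161 without HKO 2 and 92 without HKO 3. Of the markers, 1 (Cd163, lower) was called in place of 0 with dim genes left out (adjusted p = 0.0316), with the median of probe sets (0.0413), with the probe set chosen by the control mean (0.0499), with a trended and robust variance (0.0249), with array weights (0.0476) and at an adjusted p under 0.1. With quantile normalization or centring, at a threshold of 0.01 and without any 1 array, 0 were called. With dim genes left out, the monocyte group's median was -0.163 over 2 genes and that of the T cell group 0.136 over 1 gene. The T cell median, -0.069, ranged from -0.221 without control 2 to 0.129 without control 1 and was 0.081 without HKO 1. Of 595 refits of single members, 49, in 27 members, changed sign. With the replicate number as a replicate block, 125 genes and 0 markers were called; deviations of same-numbered arrays correlated at -0.094, 0.069 and 0.112, and only control 3 and HKO 3 correlated best with the array of their own number, so the numbers were not taken as pairs. Signal limits the lymphocyte markers, of which 1 of 14 was above the median gene.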

Other observations

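The genes whose values followed S100a8 most closely over the 6 arrays, among genes above the median gene, were Ifi30 and Osmr (both r = 0.985), Tbx3 (0.981), S100a9 (0.979), Dio1 (0.977), Nckap1l (0.97), Extl3, Diaph2 and Hp (0.967) and Bcl3 (0.966). In all 10, control 1 was the highest array and HKO 1 the lowest, as for S100a8. The choice by correlation with S100a8 all but fixed these extremes, so they are no separate result. Hp, which encodes the acute-phase protein haptoglobin, read 12.84, 12.44 and 12.40 in control and 12.32, 12.43 and 12.47 in HKO liver.

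Cells outside the marker list were read in the same limma fit. None of 9 dendritic cell, 9 mast cell, basophil and eosinophil, 6 platelet, 12 endothelial, 10 stellate cell and fibroblast, 5 cholangiocyte and 3 erythrocyte genes passed, with medians between -0.222 and 0.029. At an unadjusted p under 0.05 stood 1 of these, the cholangiocyte and progenitor factor Sox9, which read 4.50, 4.35 and 3.79 against 3.45, 3.48 and 3.73 (-0.66 ± 0.18, adjusted p = 0.171).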
